A study of Homo sapiens with 6 samples.

Results

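The genes followed here belong to retinoic acid signalling: the nuclear receptors RARA, RARB, RARG, RXRA, RXRB and RXRG, the binding proteins CRABP1 and CRABP2, and the enzymes CYP26B1 and DHRS3. They were picked by symbol, with earlier results of these data known, and all 10 were among the 19923 protein-coding genes of the count tables. The study sequenced poly(A) RNA in 6 libraries from Kelly, a MYCN-amplified human neuroblastoma cell line labelled as wild type. Cells carried, for 72 hours, either a control siRNA (siControl, 3 libraries) or an siRNA against METTL3 (siMETTL3, 3 libraries), both transfected with a lipid reagent at a concentration that the labels give as 20 µM. METTL3 is the catalytic subunit of the enzyme that writes N6-methyladenosine (m6A) on mRNA, and the series title places the comparison in a study of neuroblastoma growth and differentiation. The knockdown is transient, and partial as far as the METTL3 counts given below show. The labels name no retinoid among the treatments. They do not say whether replicates came from separate cultures, so p-values measure the spread between these libraries, which may be technical.

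Retinoic acid is made from vitamin A (retinol) by way of retinal. In the cell it is carried by CRABP proteins and binds RAR receptors, which sit on DNA as pairs with RXR receptors and switch between corepressors and coactivators when the ligand is bound. CYP26 enzymes oxidise retinoic acid and so clear it, and DHRS3 returns retinal to retinol. Several of these genes, among them RARB, CYP26 genes, CRABP2 and DHRS3, are themselves known to be induced by retinoic acid, and a retinoic acid isomer is used as a differentiation therapy in neuroblastoma.

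The shallowest library, siControl replicate 3, held 15430000 counts, and the deepest, siMETTL3 replicate 2, held 21565013. METTL3 itself was 53.5, 52.8 and 56.2 CPM (counts scaled to the TMM-adjusted library size) in siControl and 32.99, 31.8 and 34.3 CPM in siMETTL3. This was a log2 fold change of -0.71 (SE 0.070, edgeR FDR 4.68e-06). The METTL3 counts take in introns, and 1043 bases (7.90%) of its span are shared with TOX4 on the other strand. Reads of the shared bases are not separated, and METTL3 protein was not measured here. All 12 markers of noradrenergic neuroblastoma cells were detected, with a sum of 6452 to 7020 CPM (of the unadjusted total) in siControl and 9234 to 9843 in siMETTL3. The 7 mesenchymal markers summed to 209 to 225 CPM in siControl and 156 to 170 CPM in siMETTL3, and the 3 leukocyte markers to at most 0.604 CPM in any library. The lists of Schwann, epithelial and endothelial markers, of 3 measured genes each, summed to at most 9.33 CPM in any library, with 1 epithelial marker at 0 throughout. Their lowest and highest sums went from 2.53 and 3.44 CPM in siControl to 4.02 and 5.56 CPM in siMETTL3 for the Schwann list, and from 4.86 and 5.88 to 6.99 and 9.33 CPM for the endothelial list. For the epithelial list they were 5.98 and 6.97 CPM in siControl and 5.69 and 8.36 CPM in siMETTL3. The span of a Schwann marker lies wholly inside another gene on the other strand, and their reads are not separated. The part of these lists in the results was not tested. The part of these shifts in the results on retinoid genes was not tested. In bulk RNA, fewer cells that express a gene and less RNA per cell cannot be told apart.

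Of the 10 genes, 8 passed the filter on low counts and 6 of those changed at an adjusted p (FDR) under 0.05. The enzyme gene CYP26B1 rose most, 4.93-fold. CRABP2, RARG and CRABP1 rose by smaller amounts, and RARB and RXRB fell. RARA and RXRA were not past the threshold with all libraries in this fit, though each passed it in some alternative fits, and RXRG and DHRS3 fell below the filter on low counts. Across all 15311 tested genes, 37.8% were past the threshold, 18.6% higher and 19.2% lower in siMETTL3. In all 8 tested members the values of one group lay wholly on one side of the other's, as they did in 49.9% of all tested genes (24.8% higher and 25.1% lower in siMETTL3). The median log2 fold change was 0.43 over the 8 tested members and -0.0021 over all tested genes. The counts of 4 higher and 2 lower members rest on all 6 libraries. They were 1 and 1 without siMETTL3 replicate 1, 2 and 0 without siMETTL3 replicate 3, and 2 and 2 without siControl replicate 2. Without siMETTL3 replicate 2 there was 1 lower member. CYP26B1 is the member that passed in every one of these fits.

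**Figure D1:**
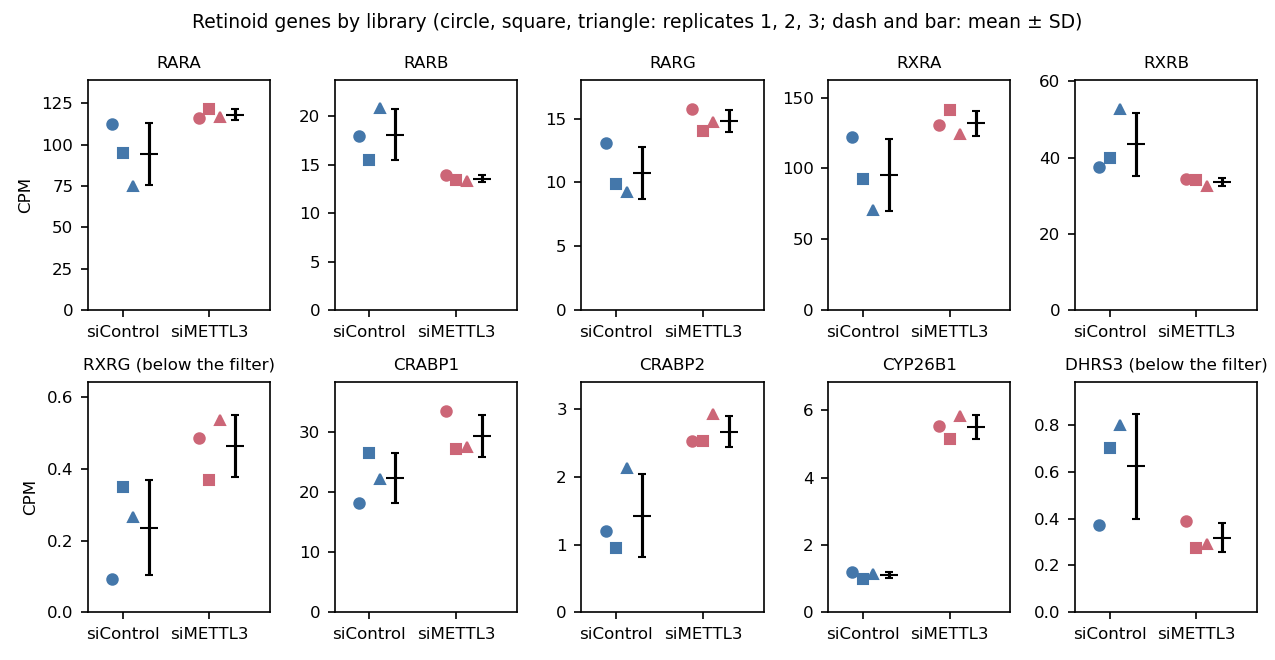
Expression of each of the 10 genes in CPM (linear axis from 0, one panel per gene) in the 3 siControl and 3 siMETTL3 libraries; the dash and bar give the mean and SD of 3. CYP26B1 lies near 1 CPM in siControl and between 5.14 and 5.84 CPM in siMETTL3, and RARA, RXRA and RXRB spread more within siControl than within siMETTL3.

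CYP26B1 (chromosome 2, 72129238 to 72148038, minus strand, GRCh38) encodes a cytochrome P450 that oxidises retinoic acid to forms that are cleared. Its raw counts were 26, 20 and 17 in siControl and 114, 112 and 120 in siMETTL3. Normalised expression was 1.21, 1.00 and 1.13 CPM in siControl and 5.54, 5.14 and 5.84 CPM in siMETTL3. Every siMETTL3 library was thus above every siControl library. The log2 fold change was 2.30 (SE 0.21, 95% interval 1.85 to 2.76, edgeR FDR 2.97e-06), a fold change of 4.93 with an interval of 3.59 to 6.76. A log2 fold change at or above this value was found in 37 tested genes, CYP26B1 included (0.242%). Over all alternatives its log2 fold change went from 2.18 to 2.37 and its FDR reached at most 0.000105. The annotation places a long noncoding RNA on the opposite strand inside the CYP26B1 span, and because the counting did not use strand, reads of both cannot be told apart.

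The other CYP26 genes were at or near the limit of detection. CYP26A1, the family member best known as a retinoic acid target, had 0 counts in all 3 siControl libraries and 6, 2 and 2 counts in siMETTL3. A count of 0 allows up to 3 counts in a library, so no fold change is given and the gene was not tested. CYP26C1 was tested at a low level, with a log2 fold change of 0.41 and a 95% interval of -0.60 to 1.41 (edgeR FDR 0.535). The interval leaves room for a fall as well as for a rise of the size seen in several members.

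DHRS3 (chromosome 1, 12567910 to 12618210, minus strand), the reductase that turns retinal back into retinol, was barely detected. It had 8, 14 and 12 counts in siControl and 8, 6 and 6 in siMETTL3, and the lowest siControl library overlapped the siMETTL3 libraries. It did not enter the main test. Without the filter on low counts its log2 fold change was -0.93 (edgeR FDR 0.269), opposite in sign to that of CYP26B1 and not past the threshold.

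The retinoic acid receptors RARA, RARB and RARG bind the ligand and differ mainly in where they are expressed. RARB (chromosome 3, 25174332 to 25597932, plus strand) is a classical direct target, through a retinoic acid response element in the promoter of its main transcript. That promoter and the promoter of CYP26B1 are shown because both genes are known to respond to retinoic acid and they moved in opposite directions here. Both are the 250 bases before the start given by RefSeq (GRCh38.p14), RARB at chr3:25428013-25428262 on the plus strand and CYP26B1 at chr2:72147863-72148112 on the minus strand, written 5′ to 3′. Capitals mark half-sites of a response element, where 2 of them follow each other in the same orientation, on either strand, with a spacer of 5, 2 or 1 bases (DR5, DR2, DR1). A half-site was the consensus AGGTCA, its common variant AGTTCA, or one of the less common forms GGGTCA and GGTTCA. No other form was searched for.
RARB: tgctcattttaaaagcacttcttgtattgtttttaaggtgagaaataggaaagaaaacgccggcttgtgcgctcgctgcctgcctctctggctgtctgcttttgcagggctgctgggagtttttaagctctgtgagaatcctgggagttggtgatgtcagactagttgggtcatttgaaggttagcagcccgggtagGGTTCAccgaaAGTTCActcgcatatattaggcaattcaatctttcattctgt
CYP26B1: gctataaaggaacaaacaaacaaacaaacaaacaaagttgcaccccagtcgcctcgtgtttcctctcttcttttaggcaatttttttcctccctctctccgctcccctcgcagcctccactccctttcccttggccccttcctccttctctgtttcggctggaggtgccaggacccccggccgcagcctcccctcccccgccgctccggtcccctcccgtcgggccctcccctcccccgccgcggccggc

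The RARB window holds 1 DR5, which begins 53 bases before the start. It was the one such repeat in the promoter windows of the 10 genes. Of 35116 RefSeq promoter windows of the same length, 0.0740% hold a DR5, 0.0313% a DR2 and 0.0968% a DR1. The letters searched are not in the CYP26B1 window, which says nothing about sites elsewhere at that gene. The GC content was 46% in the RARB window and 62.8% in that of CYP26B1.

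RARB was 18.0, 15.5 and 20.8 CPM in siControl and 14.0, 13.4 and 13.3 CPM in siMETTL3. The siMETTL3 libraries lay close together and below all siControl libraries. RARB fell by 0.41 on the log2 scale (SE 0.12, 95% interval -0.66 to -0.16, edgeR FDR 0.0127). Without siMETTL3 replicate 3 the FDR was 0.0506, the highest of the alternatives, and the lowest was 0.00731. The counted span begins far upstream of the canonical transcript, which starts at 25428263, and so takes in long introns, and its last 28 bases overlap TOP2B on the other strand. TOP2B, a DNA topoisomerase gene, also fell (log2 fold change -0.46, edgeR FDR 0.000162), and the share of RARB counts that lies in these 28 bases was not measured.

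RARG (chromosome 12, 53210567 to 53232980, minus strand) was 13.1, 9.91 and 9.23 CPM in siControl and 15.7, 14.0 and 14.7 CPM in siMETTL3. All siMETTL3 libraries were higher, though siControl replicate 1 came within 1 CPM of the lowest of them. RARG rose by a log2 fold change of 0.45 (SE 0.13, 95% interval 0.17 to 0.74, edgeR FDR 0.0158). The FDR was 0.0782 without siControl replicate 2, 0.0754 without siMETTL3 replicate 1 and 0.0507 without siMETTL3 replicate 3, with a range of 0.000672 to 0.0782 over all alternatives.

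RARA (chromosome 17, 40309180 to 40357643, plus strand), the most abundant RAR gene here, was 112, 95.2 and 75.0 CPM in siControl and 116, 122 and 117 CPM in siMETTL3. The groups did not overlap, but siControl replicate 1 lay near the siMETTL3 libraries and siControl replicate 3 far below. The log2 fold change was 0.32 (SE 0.12, 95% interval 0.051 to 0.59) with an FDR of 0.0620 in edgeR's quasi-likelihood test. It was 0.19 without siControl replicate 3 (FDR 0.0180) and 0.47 without siControl replicate 1 (FDR 0.000186), and the FDR went from 0.000186 to 0.152 over all alternatives. The call on RARA thus depends on which siControl library is kept and on the tool. The annotation has RARA-AS1 and 2 unnamed genes on the opposite strand inside its span, whose reads are not separated from those of RARA.

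The 3 RXR genes encode the partners that RAR and several other nuclear receptors need to bind DNA as pairs. RXRA (chromosome 9, 134317098 to 134440585, plus strand) was 122, 92.8 and 71.0 CPM in siControl and 130, 141 and 124 CPM in siMETTL3. As for RARA, siControl replicate 1 was close to the siMETTL3 libraries and siControl replicate 3 was the lowest. The fit gave a log2 fold change of 0.46 (SE 0.19, 95% interval -0.0095 to 0.94) and an edgeR FDR of 0.114. RXRA passed without siControl replicate 1 (log2 fold change 0.68, FDR 0.000213) and did not without siControl replicate 3 (0.29, FDR 0.0601). With all libraries and non-robust dispersions it passed as well (0.46, FDR 0.0200), so the call on RXRA depends on the libraries kept and on the fit. The FDR went from 0.000213 to 0.216 over all alternatives.

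RXRB (chromosome 6, 33193588 to 33200688, minus strand) was 37.4, 39.99 and 52.8 CPM in siControl and 34.4, 34.1 and 32.5 CPM in siMETTL3. The siControl values were higher throughout, and siControl replicate 3 stood above the others. RXRB fell by 0.36 on the log2 scale (SE 0.11, 95% interval -0.60 to -0.12, edgeR FDR 0.0223). Without siControl replicate 3 the log2 fold change was -0.20 (FDR 0.0417). The FDR was 0.0605, 0.0621 and 0.0836 without siMETTL3 replicates 1, 2 and 3, and alternatives as a whole spanned 0.00121 to 0.0836. Its span shares 244 bases (3.44%) with SLC39A7, a zinc transporter gene on the other strand. SLC39A7 had 44.7 ± 3.72 CPM in siControl and 44.8 ± 2.98 CPM in siMETTL3 (SD, n = 3).

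RXRG (chromosome 1, 165400922 to 165445355, minus strand) had 2, 7 and 4 counts in siControl and 10, 8 and 11 in siMETTL3. The counts did not overlap when scaled, but the gene was below the filter. Without the filter its log2 fold change was 0.97 (edgeR FDR 0.337).

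**Figure D2:**
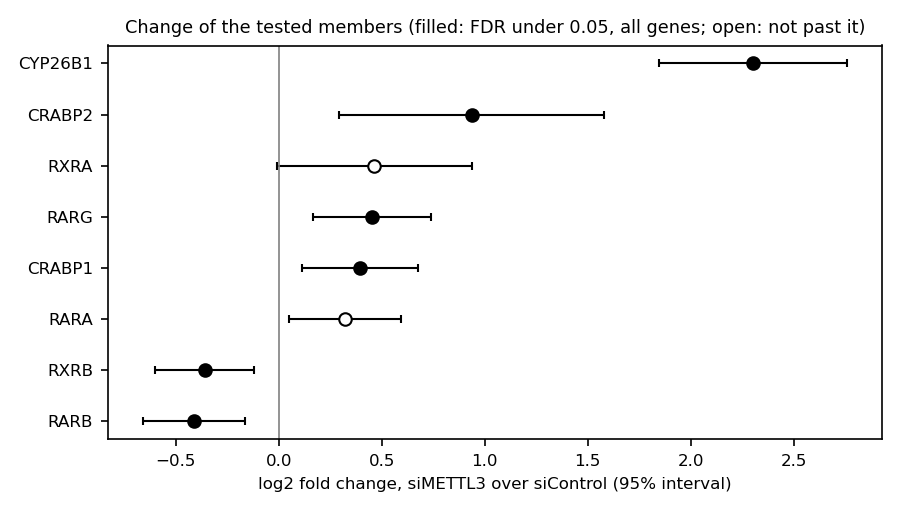
Log2 fold change of the 8 tested genes, siMETTL3 over siControl, with 95% intervals from edgeR; filled points have an FDR under 0.05 over all genes and open points do not. CYP26B1 stands apart at 2.30, RARB and RXRB lie below 0, and the interval of RXRA includes 0.

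A feature shared by the tested receptor genes was the place of siControl replicate 3, the shallowest library. Within siControl it had the lowest RARA, RARG and RXRA and the highest RARB and RXRB, on the side away from siMETTL3 in all 5 cases. CYP26B1 did not show this, nor did RXRG, which was below the filter. In both, siControl replicate 3 lay between the other siControl libraries. RARA, RARG and RXRA have GC-rich canonical transcripts, with 60.2% to 61.9% GC against a median of 48.6% over the tested genes. RXRB is GC-rich as well (58.4%) but had its highest siControl value in replicate 3, where RARA, RARG and RXRA had their lowest. RARB has 42.8%. The tenth of genes with the highest GC content begins at 62.2%, above every member. Its median log2 deviation from the siControl mean was -0.098 in siControl replicate 3 and 0.057 and 0.045 in the other siControl libraries. In the siMETTL3 libraries it ranged from -0.0020 to 0.12. With an offset for GC content, chosen after seeing the data, the log2 fold changes were 0.20 for RARA, -0.39 for RARB, 0.32 for RARG, 0.34 for RXRA and -0.50 for RXRB. The fall of RXRB was thus larger than in the main fit (-0.36), and the other changes were smaller. RARB, RARG and RXRB still passed (FDR 0.00957, 0.0438 and 0.0400), and RARA and RXRA did not (FDR 0.103 and 0.161). The part of GC content in the place of siControl replicate 3 was not tested.

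The cellular retinoic acid-binding proteins are small carriers of the ligand. CRABP1 (chromosome 15, 78340353 to 78348225, plus strand), linked to delivery of retinoic acid to metabolism in the cytosol, was 18.3, 26.6 and 22.2 CPM in siControl and 33.5, 27.3 and 27.5 CPM in siMETTL3. The groups did not overlap, but the highest siControl and lowest siMETTL3 libraries differed by less than 1 CPM. CRABP1 rose by a log2 fold change of 0.40 (SE 0.13, 95% interval 0.12 to 0.68, edgeR FDR 0.0288). The call was lost without siControl replicate 1 (0.26, FDR 0.0643), without siMETTL3 replicate 1 (0.29, FDR 0.143) and with the GC offset (0.27, FDR 0.171). The FDR went from 0.00837 to 0.273 over all alternatives.

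CRABP2 (chromosome 1, 156699606 to 156705816, minus strand), known to pass retinoic acid to RAR in the nucleus, had 26, 19 and 32 counts in siControl and 52, 55 and 60 in siMETTL3. These were 1.21, 0.951 and 2.12 CPM against 2.53, 2.53 and 2.92 CPM. The siMETTL3 libraries were all higher, and siControl replicate 3 lay nearest to them. CRABP2 rose by a log2 fold change of 0.94 (SE 0.30, 95% interval 0.29 to 1.58, edgeR FDR 0.0238). The FDR was 0.107 without siControl replicate 2 and 0.0544, 0.0574 and 0.0823 without siMETTL3 replicates 1, 2 and 3. It went from 0.000982 to 0.107 over all alternatives. A long noncoding RNA on the opposite strand covers most of the CRABP2 span, so its reads cannot be told apart from those of CRABP2.

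To compare levels between genes, CPM were divided by the length in kilobases of the canonical transcript in GENCODE release 44. The counts also include intronic reads, so this level is approximate. Counted spans differ between genes, with 423601 bases for RARB, 48464 for RARA and 22414 for RARG. Intronic reads can thus raise the levels unequally, which also bears on the order and the family shares below. On this scale CRABP1 and RARA were highest in siControl, at 30.3 ± 5.64 and 28.8 ± 5.73 CPM per kb (SD, n = 3), and their ranges overlapped. RXRA and RXRB followed at 17.2 ± 4.63 and 15.05 ± 2.86 CPM per kb, also overlapping. RARB (5.79 ± 0.850), RARG (3.68 ± 0.704) and CRABP2 (1.46 ± 0.633) came next, with no overlap between neighbours. DHRS3, CYP26B1 and RXRG were all below 0.4 CPM per kb in every siControl library, and DHRS3 overlapped both of the others.

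The order changed in several places in siMETTL3. RXRA, at 23.8 ± 1.59 CPM per kb, no longer overlapped RXRB at 11.7 ± 0.355. RARG, at 4.80 to 5.40 CPM per kb, lay above RARB at 4.26 to 4.47, the reverse of siControl. CYP26B1 moved clear of DHRS3 and RXRG, at 1.21 ± 0.0769 CPM per kb, but stayed below CRABP2 at 2.73 ± 0.234.

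**Figure D3:**
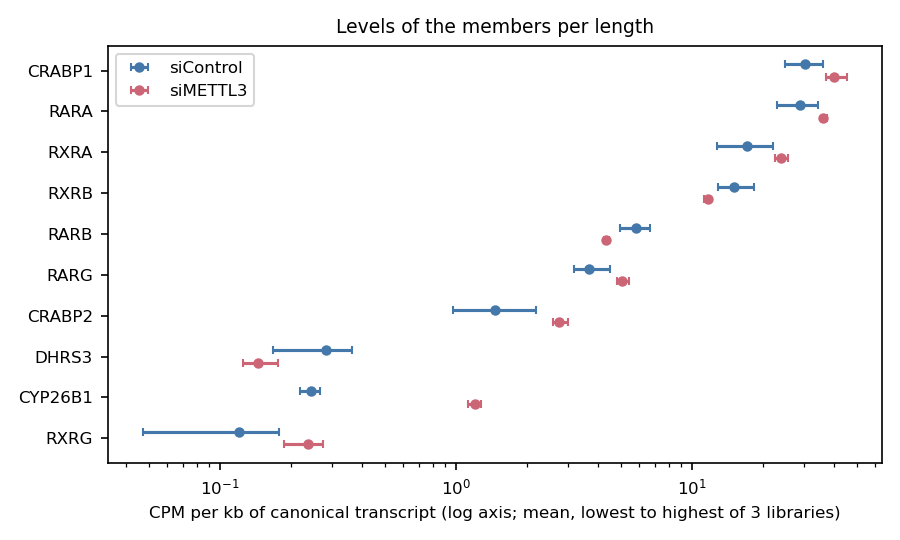
Level of each gene in CPM per kb of canonical transcript on a log axis, as the mean and the lowest to highest of 3 libraries per group. CRABP1 and RARA are highest in both groups, RARB and RARG exchange places, and CYP26B1 leaves the group of barely detected genes in siMETTL3.

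As a share of the summed RAR level per kb, RARB made up 12.9%, 13.2% and 20.3% under siControl and 9.86%, 9.25% and 9.48% under siMETTL3. RARG made up 10.1%, 9.08% and 9.67% and then 11.9%, 10.4% and 11.2%. RARA held most of the sum in every library, from 70.0% to 77.7% in siControl and from 78.2% to 80.4% in siMETTL3. None of these shares overlapped between the groups. Among the RXR genes, the share of RXRA was 62.9%, 54.4% and 41.0% in siControl and 66.0%, 68.0% and 66.0% in siMETTL3. The siControl libraries thus differed more among themselves than siControl replicate 1 did from siMETTL3. CRABP1 made up 95.3% ± 2.07 of the summed CRABP level in siControl and 93.5% ± 1.02 in siMETTL3 (SD, n = 3), with overlapping values.

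The lengths and GGACT densities of the canonical transcripts of RARB and RXRB, which fell, lay within the range of the 4 members that rose. That range is wide (738 to 4556 bases, 0 to 2.05 GGACT per kb), so lying within it says little about the direction of change. CYP26B1 has 4556 bases and 6 exons, CRABP1 has 738 bases and CRABP2 has 974, against a median of 3357 bases over tested genes. The sequence GGACT, a frequent context of m6A, was counted on the transcript strand. It occurs 4 times in CYP26B1 (0.878 per kb), 5 times in RARB (1.60 per kb), 2 times in CRABP2 (2.05 per kb) and 0 times in CRABP1. The median of the tested genes was 0.929 per kb. Whether any of these sites carries m6A was not measured here.

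The wider pathway was described with 7 lists of other retinoid genes, of which 61 were tested. Of these, 20 rose and 7 fell, so 44.3% were past the threshold against 37.8% of all tested genes. Over all tested genes 18.6% rose and 19.2% fell, which is the background for the counts of each list below. The lists were chosen with earlier results of these data known, so the comparison is not an independent one. One listed gene was not analysed here, and 20 others fell below the filter on low counts. The median log2 fold change of the 61 genes was 0.18.

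Among the genes of retinol uptake, storage and carotenoid cleavage, 1 of 5 tested rose and none fell, with 4 not past the threshold. It was STRA6, the cell-surface receptor for retinol bound to its carrier, which is itself inducible by retinoic acid. STRA6 was 124, 111 and 106 CPM in siControl and 182, 183 and 174 CPM in siMETTL3 (log2 fold change 0.66, SE 0.064, edgeR FDR 4.34e-06). The groups were far apart relative to their spread. The STRA6 span shares 29.2% of its length with CCDC33 on the other strand.

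Of the 12 tested retinol and retinal dehydrogenase genes, 2 rose and 3 fell. ALDH1A2, a main retinal dehydrogenase that makes retinoic acid in embryos, rose from 1.56 ± 0.393 to 3.14 ± 0.483 CPM (SD, n = 3), a log2 fold change of 1.03 (edgeR FDR 0.00750). Its long counted span also covers parts of AQP9 and LIPC on the other strand. ALDH8A1, an aldehyde dehydrogenase that can act on a retinal isomer, rose by 0.61 (FDR 0.00444). ADH5 and RDH14 fell by 0.45 and 0.55 on the log2 scale (FDR 0.000112 and 0.00619). ADH5 is a broadly expressed alcohol dehydrogenase, and RDH14 shares most of its span with a readthrough gene on the same strand.

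PPARD, a nuclear receptor that can also bind retinoic acid, and FABP5, the carrier linked to it, moved in opposite directions. PPARD was 79.8, 71.5 and 61.3 CPM in siControl and 116, 117 and 116 CPM in siMETTL3 (log2 fold change 0.71, edgeR FDR 1.85e-05). FABP5 was 16.7, 16.1 and 16.5 CPM in siControl and 11.3, 12.1 and 12.2 CPM in siMETTL3 (log2 fold change -0.47, edgeR FDR 0.00236). Neither gene's groups overlapped. With CYP26C1 these were the 3 tested genes of the list on clearance and the alternative carrier.

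Coregulators of RAR and RXR moved by small amounts. Of 8 coactivator genes 4 rose and 1 fell, and of 9 corepressor genes 4 rose and 1 fell. Among the coactivators, the acetyltransferase gene EP300 rose by 0.37 on the log2 scale, the arginine methyltransferase gene CARM1 by 0.33 and NCOA3 by 0.22, while the acetyltransferase gene KAT2B fell by 0.60 (edgeR FDR 0.000240, 0.00477, 0.0114 and 0.000944). The NCOA3 call was lost without siMETTL3 replicate 1 or replicate 3 (FDR 0.0663 and 0.0509). Among the corepressors, TBL1X rose from 180 ± 12.8 to 279 ± 12.4 CPM, or 0.63 on the log2 scale (FDR 6.54e-06). TBL1XR1 and SIN3A, both part of corepressor complexes, rose by 0.31 and 0.28 (FDR 0.000884 and 0.00175). NRIP1, a ligand-dependent corepressor gene, fell by 0.31 (FDR 0.00283).

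Of 10 tested genes for other nuclear receptors listed as partners of RXR, 3 rose and none fell. The orphan receptor gene NR4A1 rose by 0.54, the thyroid hormone receptor gene THRB by 0.51 and PPARG, the adipocyte fatty acid receptor, by 0.32 on the log2 scale (edgeR FDR 0.00217, 0.00795 and 0.0477). The PPARG call was lost in 7 of the alternatives, with an FDR of up to 0.247 without siMETTL3 replicate 3.

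Of 26 genes known to be induced by retinoic acid, outside the 10 members, 15 were tested, 6 rose and 1 fell. Another 11, among them anterior HOX genes, had at most 9 counts in any library. NAV2, a neuron navigator gene, was 34.8, 31.9 and 35.2 CPM in siControl and 65.0, 63.8 and 65.8 CPM in siMETTL3 (log2 fold change 0.93, edgeR FDR 3.33e-07). RARRES1, named as a retinoic acid receptor responder, was 25.2, 22.5 and 24.7 CPM in siControl and 44.8, 43.6 and 38.4 CPM in siMETTL3 (log2 fold change 0.81, edgeR FDR 9.96e-06). STRA6, described above, also belongs to this list. MEIS1, a homeobox gene and HOX cofactor, was 193 ± 4.31 CPM in siControl and fell by 0.28 on the log2 scale to 159 ± 4.71 CPM (edgeR FDR 0.00114). Over the list, the median log2 fold change was 0.24.

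**Figure D4:**
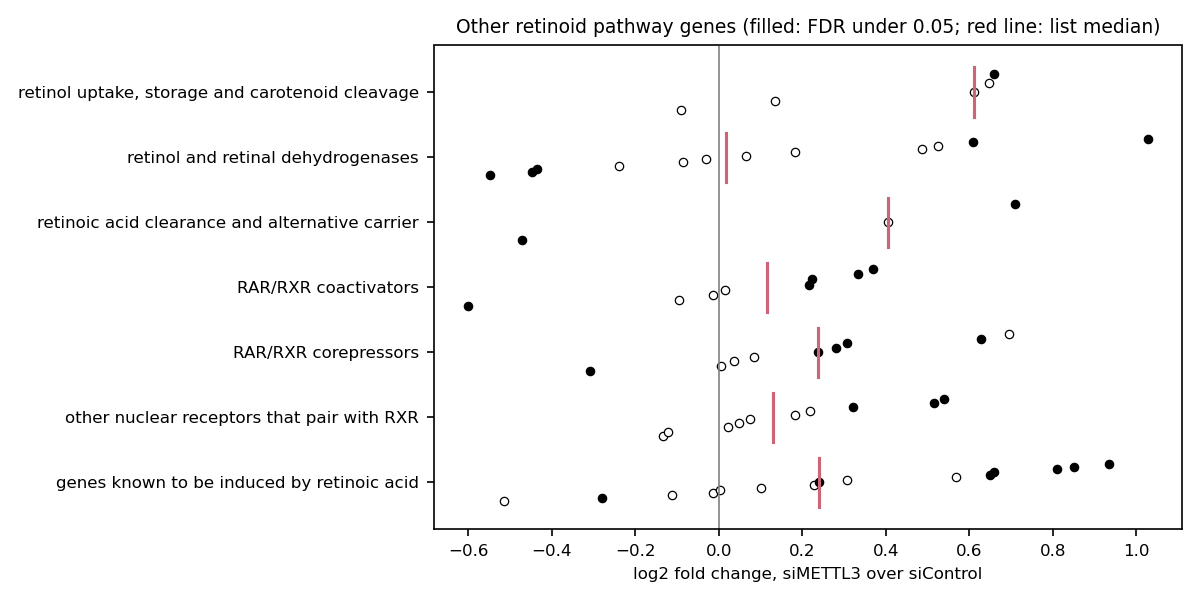
Log2 fold change of each tested gene of the 7 retinoid pathway lists, with filled points for an FDR under 0.05, open points for the rest, and a red line at each list's median. Every list has genes on both sides of 0, and the largest rise is that of ALDH1A2 at 1.03.

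Profiles over the 6 libraries were compared by the Euclidean distance between log2 CPM values taken relative to the siControl mean, among genes whose mean log2 CPM was 3 or more. Those nearest to CYP26B1 were PLXNA2 (distance 0.417, 152 to 604 CPM in the group means), FSTL4 (0.433, 4.92 to 26.2 CPM) and SERPINB9 (0.434, 27.4 to 120 CPM). Those nearest to CRABP2 were ETS1 (distance 0.433), HPCAL4 (0.567) and KHDRBS3 (0.607), with log2 fold changes of 0.98, 1.07 and 0.88. The distance mostly reflects the size of the change between groups and how closely the 3 libraries of a group lie together.

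**Figure D5:**
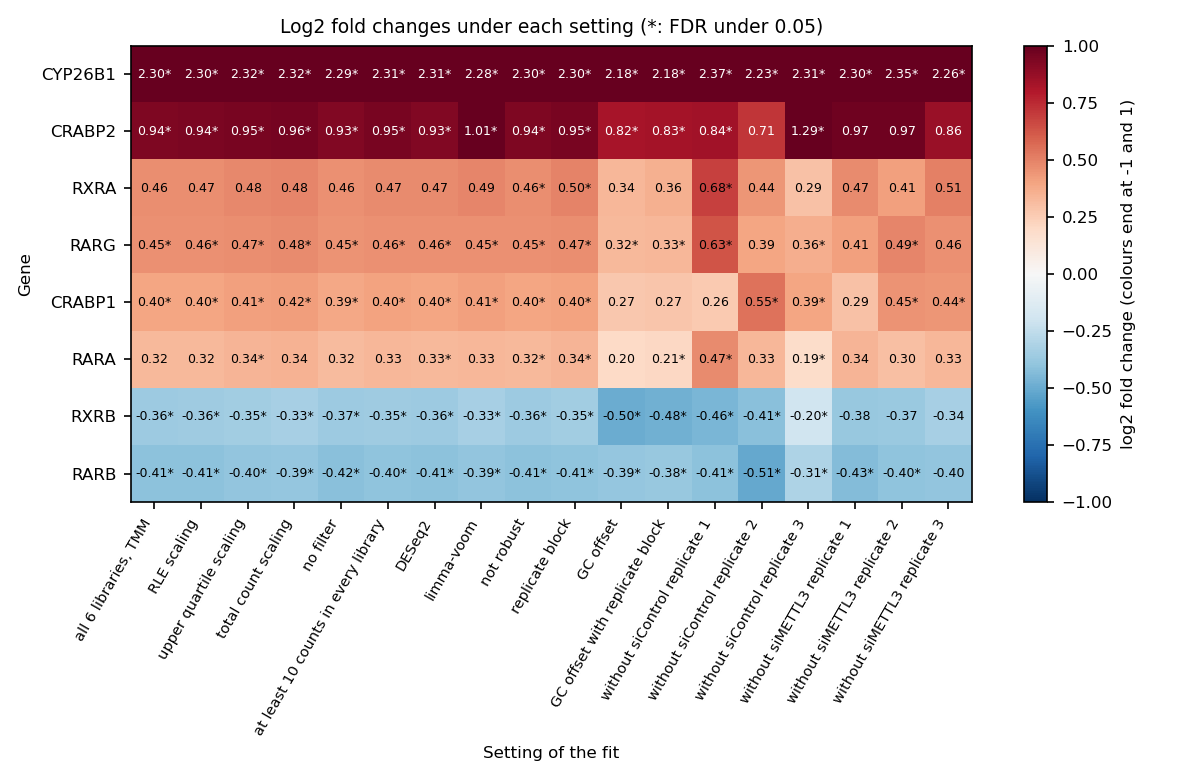
Log2 fold changes of the 8 tested genes (rows) under each setting of the fit (columns), printed in the cells with an asterisk for an FDR under 0.05; colours run from blue (-1) to red (1). CYP26B1 passes in every column, while the marks of the receptor and CRABP genes come and go as single libraries are left out.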

How the data were processed

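Poly(A) RNA of 6 libraries was sequenced, and the groups and replicate numbers come from the sample titles. The deposited values are raw read counts per gene, made by the authors with featureCounts 1.5.3 on a protein-only GENCODE release 33 annotation, per the file headers. Reads were assigned to whole gene spans with their introns, to each gene where spans overlap, and without a strand option. The submitters' processing notes also name FastQC 0.11.5, Trimmomatic 0.36 and HISAT2 2.1.0, and the build GRCh38.

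All genes were fitted together in edgeR 4.0.16 (R 4.3.3): filterByExpr, TMM scaling, robust quasi-likelihood F-test, no covariate, Benjamini-Hochberg adjustment (FDR) over 15311 genes, threshold 0.05. CPM use the TMM-scaled library size, except for the marker sums. The SE is the absolute log2 fold change over the square root of F. On simulated data with 200 changed genes the fit recovered most of them, but the share of false calls at this threshold was above the nominal one. Far more genes, 37.8% of those tested, were called in the data, so the simulated share does not carry over directly. Its size in the data was not tested, and member calls just under the threshold are to be read with caution. Libraries of a group differed by more than sampling noise. Chi-square per degree of freedom was 5.57 to 16.2 for siControl pairs and 3.05 to 3.75 for siMETTL3 pairs. It was largest for the pairs with siControl replicate 3. Alternatives were 3 other scalings, other filters, DESeq2 1.42.0, limma-voom (limma 3.58.1), non-robust dispersions, a replicate block and leaving out each library, and, added later, an offset for GC content with and without the block.

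The members and lists were chosen with earlier results of these data known. Named were all members, METTL3, genes overlapping a member or METTL3, and up to 4 called genes with the smallest FDR per list. The 3 nearest profiles of the 2 called members with the largest change were named as well. Promoters were from RefSeq, and transcript length, GC and exons from GENCODE release 44, found for 95.3% of tested genes.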

Additional observations from a re-analysis of the deposited data

How the results depend on the processing

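The direction of all 8 tested members held under every alternative that was run, and CYP26B1 and METTL3 passed the threshold in each. RARA, not past it in the main fit, passed with upper-quartile scaling (log2 fold change 0.34), DESeq2 (0.33), non-robust dispersions (0.32), the replicate block (0.34, FDR 0.0184) and the GC offset with replicate block (0.21, FDR 0.0494). RXRA passed with non-robust dispersions (0.46) and with the replicate block (0.50, FDR 0.0313). CRABP1 lost its call with the GC offset (0.27) and with the GC offset and replicate block (0.27). For these changes the cause was not tested. In the 6 fits that dropped 1 library each, the log2 fold change went from 0.19 to 0.47 for RARA, from -0.51 to -0.31 for RARB, from 0.36 to 0.63 for RARG, from 0.29 to 0.68 for RXRA, from -0.46 to -0.20 for RXRB, from 0.26 to 0.55 for CRABP1, from 0.71 to 1.29 for CRABP2 and from 2.23 to 2.37 for CYP26B1. Between 1 and 5 members were called higher and between 0 and 2 lower in these fits, which have fewer samples.

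SLC39A7, not past the threshold in any fit, changed sign with the GC offset (-0.11), with the GC offset and replicate block (-0.11) and in 3 of the fits that left out a library (range -0.051 to 0.066). Of the 30 genes named beside the members, 7 of 180 values from fits without a library and 2 of 330 others lost the threshold. Same-numbered libraries were at most weakly alike: their deviations from the mean of the group correlated at 0.040, 0.049 and 0.067. Every library correlated best with its own number, and the other correlations ran from -0.064 to 0.026. These values do not settle whether the libraries pair by number. With the replicate block 6166 genes were called, against 5786. RXRG and DHRS3, with at most 14 counts in a library, were below the filter, and neither passed the threshold in edgeR without it.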
